A study of Mus musculus with 8 samples.

Results

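The genes described here are 30 markers of cells that lie in or beneath the crypt epithelium of the colon without belonging to it: 16 endothelial genes (Pecam1 to Robo4) and 14 genes of enteric neurons and glia (Elavl4 to Snap25). They were taken by name, and every mouse probe whose RefSeq accession belonged to a member gene was used. Of the 30 genes, 29 had a probe, 42 probes in all, out of 35078 mouse probes that name 15597 genes. A probe was tested when the scanner software found its spot on at least 3 arrays, which left 28 member probes and 24 member genes, 15 endothelial and 9 neural, among 20020 tested probes.

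The samples were colon crypt epithelium of 8 male mice on a C57BL/6 background, all of the hCYP1A humanized genotype, all fed AIN93M diet and all 8 weeks old at dosing. In the PhIP group, 5 mice received PhIP, a heterocyclic amine formed when meat is cooked, by gavage once at 200 mg/kg. The 3 control mice received PBS, and the tissue of both groups was scraped from the colon 24 hours later. Each mouse gave 1 array read in 1 colour, and the series asked which genes PhIP changes in this tissue.

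Blood vessels of the colon run through the lamina propria and reach up between the crypts. Their endothelial cells are held together by the adhesion proteins Pecam1 and Cdh5 and the tight junction protein Cldn5. They take growth signals through the vascular endothelial growth factor receptors Kdr and Flt1 and the angiopoietin receptor Tek. The enteric nervous system has its cell bodies in plexuses of the submucosa and the muscle layer. Its fibres, with glial cells alongside, extend into the mucosa, so RNA of these cells in scraped epithelium comes with whatever lamina propria or deeper tissue was taken. In a bulk sample, fewer cells of a type and less RNA per cell cannot be told apart.

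In the RefSeq promoter table of build GRCm38.p6, 19 of the 30 members had an entry. Of the 5 neural members shown here, the first 4 were highest on the same 2 arrays, as described further on, while S100b was not. The 5 promoter sequences are those of the neural members with array values given below and 1 entry in that table. Each runs 5′ to 3′ along the gene, from 250 bases before the annotated start to 50 after it. All are on the plus strand, Prph at chr15:99054924-99055223, Tubb3 at chr8:123411303-123411602, Uchl1 at chr5:66675871-66676170, Vip at chr10:5638968-5639267 and S100b at chr10:76253586-76253885. Capitals mark matches on either strand to TATAAA (which forms the TATA box), TGACG (core of the cyclic AMP response element), GGGCGG (GC box) and AGGAAG (a site of ETS factors). They also mark the RE1 element, which the repressor REST binds, by CAGCACC for its left part and by GGACAG for its right part.
Prph: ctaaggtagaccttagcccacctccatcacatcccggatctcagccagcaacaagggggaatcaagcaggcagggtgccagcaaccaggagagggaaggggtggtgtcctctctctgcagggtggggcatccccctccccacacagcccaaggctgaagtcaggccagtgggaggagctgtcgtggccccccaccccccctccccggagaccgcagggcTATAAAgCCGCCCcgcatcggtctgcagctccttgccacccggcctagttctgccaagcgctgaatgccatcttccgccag
Tubb3: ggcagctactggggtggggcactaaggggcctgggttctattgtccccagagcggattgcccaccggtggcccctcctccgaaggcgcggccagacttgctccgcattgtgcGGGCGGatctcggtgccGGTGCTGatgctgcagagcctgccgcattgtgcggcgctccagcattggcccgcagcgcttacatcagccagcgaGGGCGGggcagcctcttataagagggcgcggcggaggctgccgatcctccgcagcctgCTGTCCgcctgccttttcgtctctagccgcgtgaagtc
Uchl1: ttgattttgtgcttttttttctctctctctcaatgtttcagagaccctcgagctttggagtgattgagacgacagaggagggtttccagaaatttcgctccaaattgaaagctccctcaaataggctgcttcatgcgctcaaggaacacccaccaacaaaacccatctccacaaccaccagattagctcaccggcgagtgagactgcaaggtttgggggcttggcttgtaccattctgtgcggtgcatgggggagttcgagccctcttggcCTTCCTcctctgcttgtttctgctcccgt
Vip: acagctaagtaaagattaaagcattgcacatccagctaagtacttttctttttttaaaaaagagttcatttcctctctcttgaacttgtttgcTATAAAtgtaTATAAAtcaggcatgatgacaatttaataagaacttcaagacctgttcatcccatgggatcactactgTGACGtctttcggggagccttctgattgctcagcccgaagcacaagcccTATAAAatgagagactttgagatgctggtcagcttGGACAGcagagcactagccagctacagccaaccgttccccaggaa
S100b: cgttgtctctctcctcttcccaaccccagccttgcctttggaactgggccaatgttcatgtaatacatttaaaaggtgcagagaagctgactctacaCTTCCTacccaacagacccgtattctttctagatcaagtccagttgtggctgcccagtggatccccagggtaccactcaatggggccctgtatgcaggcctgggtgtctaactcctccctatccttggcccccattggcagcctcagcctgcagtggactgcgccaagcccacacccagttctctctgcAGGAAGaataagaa

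Counted from the annotated start, TATAAA began at position -31 in Prph and at -30 in Vip, which had 2 further matches upstream and TGACG at -79. Prph also had GGGCGG on the other strand at -24. Tubb3 had GGGCGG at positions -138 and -46 and, on the other strand, CAGCACC at -121 and GGACAG at 12. Vip had GGACAG at position 5. Uchl1 and S100b had matches to AGGAAG alone. Of 32851 promoters of this length in the table, 13.6% hold TATAAA, 20.8% TGACG, 35.7% GGGCGG, 7.14% CAGCACC, 22.2% GGACAG and 35.4% AGGAAG on either strand. No motif was found in all 5 sequences, and a match describes letters only.

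The arrays were not alike in quality. The array deposited with PhIP mouse 1 was scanned at a gain of 700 against 650 for the others, and 21.4% of its mouse probes were found above background, against 53.8% to 57.1% on the other 7. It is called the dim array here. Its median correlation with the others was 0.747, while pairs of the other 7 correlated at 0.969 or more. Member results are therefore given with 8 arrays and with the 7 others normalized anew. Of the authors' own log2 matrix, 7 columns equalled a scan plus a constant, but its column for PhIP mouse 1 held the scan deposited with PhIP mouse 2, and its column for PhIP mouse 2 matched no scan. All of these carry PhIP labels. Epcam, the defining marker of epithelium, was found on 8 of 8 arrays, whereas the probe for the brush border gene Vil1 was found on 0.

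No member passed the test of PhIP against PBS. With 8 arrays, limma called 0 of 15 endothelial and 0 of 9 neural members at a Benjamini-Hochberg adjusted p under 0.05, where 0.005% of all tested probes were called. With 7 arrays it again called 0 and 0, where 0.035% of all probes were called. At an unadjusted p under 0.05, 1 endothelial member was lower in PhIP mice with 8 arrays and 2 with 7 (1.74% and 3.52% of all probes), and 0 neural members passed in either fit. The median log2 fold change over the endothelial members was 0.02 with 8 arrays and -0.03 with 7. Over the neural members it was -0.01 and 0.12, and over all probes -0.02 and 0.02. The neural median turned on single PBS arrays, at 0.25 without PBS mouse 2 and -0.24 without PBS mouse 1.

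**Figure D1:**
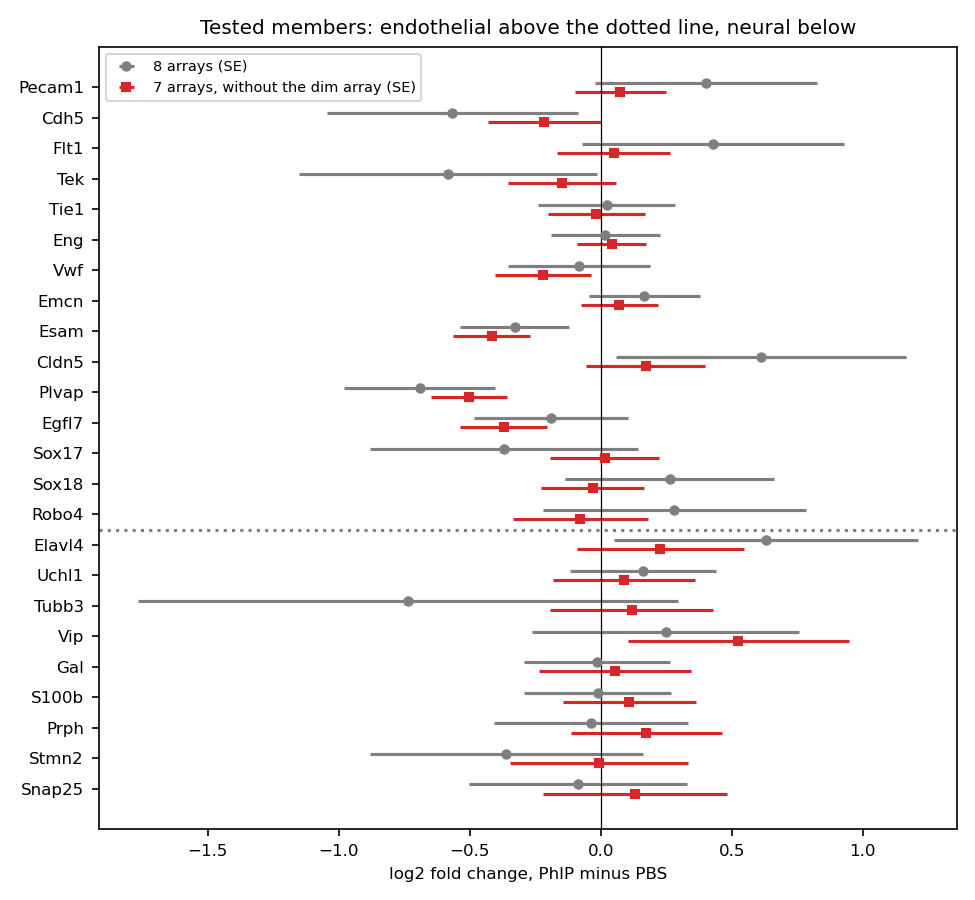
Log2 fold change (PhIP minus PBS, horizontal axis) of each tested member with its limma standard error as a bar, from 8 arrays (grey circles) and from the 7 arrays without the dim array (red squares). Plvap has the lowest 7-array value at -0.50, and Tubb3 moves from -0.74 to 0.12 when the dim array is left out.

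Plvap, which forms the diaphragms across endothelial fenestrae and caveolae, was the 1 member whose groups did not overlap. Its log2 intensity was 8.80, 8.39 and 8.72 in the PBS mice and 7.21, 8.22, 7.91, 8.26 and 8.14 in PhIP mice 1 to 5. Every PhIP value lay below every PBS value, with or without the dim array. The group means were 8.64 ± 0.21 (SD, n = 3) and 7.95 ± 0.43 (SD, n = 5), a 1.61-fold lower level with a log2 fold change of -0.69 (SE 0.29, limma adjusted p = 0.838, unadjusted p = 0.0426). Without the dim array it was 1.42-fold lower (log2 fold change -0.50, SE 0.14, limma adjusted p = 0.420, unadjusted p = 0.00928). Groups apart in this direction were seen in 1 of 15 endothelial and 0 of 9 neural members, against 2.09% of all probes with 8 arrays and 2.93% with 7 (5.34% and 8.34% in either direction). By the scan names, 4 arrays had been dipped again before scanning. Within these, 2 PBS arrays against 2 PhIP arrays of which 1 was the dim array, Plvap differed by -1.04. Within the others, 1 PBS array against 3 PhIP arrays, it differed by -0.52, a value with no spread among PBS arrays.

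Esam, an adhesion molecule of endothelial tight junctions and platelets, read 9.22, 8.91 and 9.11 in the PBS mice and 9.12, 8.96, 8.48, 8.48 and 8.73 in the PhIP mice. PhIP mice 3, 4 and 5 were below all PBS mice, while PhIP mice 1 and 2 lay among them. The 8-array difference was -0.33 (SE 0.21, limma adjusted p = 0.838), and it was -0.42 (SE 0.15, limma adjusted p = 0.509) with 7. Egfl7, a secreted protein that guides vessel tube formation, read 8.29, 8.13 and 8.73 in the PBS mice and 8.92, 8.16, 8.0, 8.05 and 7.83 in the PhIP mice. The groups overlapped, and the dim array held the highest value. Its log2 fold change was -0.19 (SE 0.29) with 8 arrays and -0.37 (SE 0.17, limma adjusted p = 0.588) with 7.

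The junction proteins Pecam1, Cdh5 and Cldn5 showed no common direction. Pecam1 read 8.50, 8.37 and 8.92 in the PBS mice and 10.30, 8.99, 8.59, 8.54 and 8.56 in the PhIP mice. PhIP mice 3 to 5 lay inside the PBS range and the dim array far above it, and the log2 fold change went from 0.40 (SE 0.42) to 0.07 (SE 0.17) without it. The second Pecam1 probe went the other way on that array, at 6.57 against 7.76 to 8.48 on the other PhIP arrays, and its fold change went from -0.39 to -0.07. Cdh5, the cadherin of endothelial adherens junctions, read 7.64, 8.14 and 8.44 against 6.10, 8.07, 7.99, 7.60 and 7.76. Its log2 fold change was -0.57 (SE 0.48) with 8 arrays and -0.22 (SE 0.21) with 7, and without the dim array all PhIP values but the 7.60 of mouse 4 fell inside the PBS range. Cldn5 read 8.72, 8.50 and 9.38 against 11.23, 9.38, 9.0, 8.79 and 8.99. Its difference was 0.61 (SE 0.55) and, without the dim array, 0.17 (SE 0.23).

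Among the growth factor and angiopoietin receptors, Kdr was found on 1 PBS and 1 PhIP array and was not tested. Flt1 read 7.30, 7.73 and 7.98 in the PBS mice and 9.61, 8.09, 7.71, 7.57 and 7.49 in the PhIP mice, a log2 fold change of 0.43 (SE 0.50) that became 0.05 (SE 0.22) without the dim array. Tek read 6.81, 6.71 and 6.70 against 4.41, 6.83, 6.91, 6.29 and 6.35, where 4.41 is the floor to which all lower values were raised. PhIP mice 2 and 3 lay just above the PBS mice and mice 4 and 5 below them. The difference was -0.58 (SE 0.57) with 8 arrays and -0.15 (SE 0.21) with 7. Tie1, the orphan partner of Tek, stood between 7.0 and 7.34 in the PBS mice and between 6.86 and 7.45 in the PhIP mice, with log2 fold changes of 0.02 and -0.02. The highest probe of Eng, a co-receptor for TGF-beta family ligands, differed by 0.02 and 0.04, and its other probe by -0.26 and -0.42.

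The groups of the remaining endothelial members overlapped in both fits. Vwf, the clotting protein stored in endothelial granules, read 8.35, 8.61 and 8.17 against 8.85, 8.34, 8.21, 8.31 and 7.75, a log2 fold change of -0.08 (SE 0.27) and, with 7 arrays, -0.22 (SE 0.18). Emcn, a sialomucin of capillary and venous endothelium, differed by 0.17 and 0.07. The transcription factors Sox17 and Sox18, which act in arterial and lymphatic vessel development, differed by -0.37 and 0.26 with 8 arrays and by 0.02 and -0.03 with 7. Robo4, an endothelial roundabout receptor, differed by 0.28 and -0.08. Of the 15 endothelial members, 8 had positive and 7 negative fold changes with 8 arrays, against 6 and 9 with 7.

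**Figure D2:**
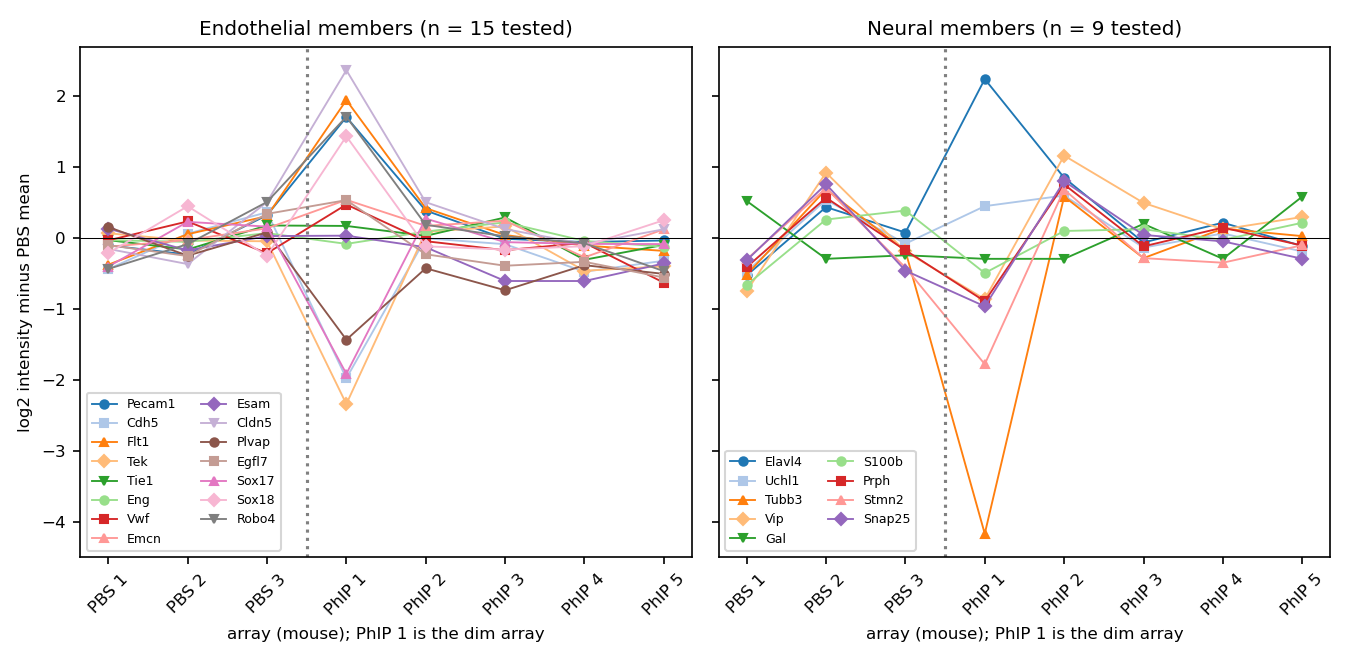
Log2 intensity of each tested member minus its mean over the 3 PBS arrays (vertical axis), for each array (horizontal axis), endothelial members on the left and neural members on the right; the dotted line parts PBS from PhIP. The dim array PhIP 1 spreads the endothelial members in both directions, and 7 neural lines peak together at PBS 2 and, with the dim array left aside, at PhIP 2.

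The dim array scattered the endothelial members in both directions, with a list mean of 0.22 around the PBS mean. That was the highest endothelial list mean of the 8 arrays. On it, 8 of the 15 lay above all 7 other arrays (Cldn5, Flt1, Robo4, Pecam1, Sox18, Egfl7, Vwf and Emcn), 4 below all of them (Tek, Cdh5, Sox17 and Plvap) and 3 within. Of the 9 neural members, 1 lay above (Elavl4), 5 below (Tubb3, Stmn2, Vip, Snap25 and Prph) and 3 within. The largest of these deviations was Tubb3, which lay at the floor, a difference of -4.19 from the median of the other 7 arrays. Leaving the dim array out changed the sign of the neural list: 6 of 9 fold changes were negative with 8 arrays and 1 of 9 with 7. Over all tested probes the positive share also rose, from 48.0% with 8 arrays to 53.1% with 7.

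The neural members divided by how well they could be read. Sox10, a transcription factor of enteric glia, had no matched probe. Chat, the enzyme that makes acetylcholine, and the glial filament gene Gfap were found on 0 arrays. Ret, the receptor for glial cell line-derived factors, and Nos1, the neuronal nitric oxide synthase, were found on 1 PBS and 1 PhIP array each. Gal, a neuropeptide, was found on 2 PBS and 3 PhIP arrays and lay at or near the floor on most, at 4.41 to 5.22 in the PBS mice and 4.41 to 5.29 in the PhIP mice. S100b, the calcium-binding protein of glia, read 4.41, 5.33 and 5.46 against 4.58, 5.17, 5.19, 5.04 and 5.29, a log2 fold change of -0.01 (SE 0.28) and, with 7 arrays, 0.11 (SE 0.25). S100b was thus the glial member with values, and it stayed close to the floor throughout.

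Of the tested neuronal members, Snap25, Stmn2, Prph, Uchl1, Tubb3 and Elavl4 were found on 3 PBS arrays and on 4 or 5 PhIP arrays, and Vip on 2 and 4. Snap25, a SNARE protein of the presynaptic terminal, read 10.17, 11.24 and 10.03 in the PBS mice and 9.52, 11.29, 10.53, 10.44 and 10.19 in the PhIP mice. Its log2 fold change was -0.09 (SE 0.42) with 8 arrays and 0.13 (SE 0.35) with 7. PBS mouse 2 and PhIP mouse 2 had nearly the same value, above all the others.

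Stmn2, a microtubule regulator of growing axons, read 9.53, 10.53 and 9.41 against 8.05, 10.51, 9.54, 9.48 and 9.73. The difference was -0.36 (SE 0.52) with 8 arrays and -0.01 (SE 0.34) with 7. The values of PBS mouse 2 and PhIP mouse 2 again stood above all the others. Prph, the intermediate filament of peripheral neurons, read 9.86, 10.83 and 10.09 against 9.38, 11.02, 10.15, 10.41 and 10.16 on its highest probe, a log2 fold change of -0.04 (SE 0.37) and, with 7 arrays, 0.17 (SE 0.29). Its second probe repeated the pattern over the 7 arrays, at 9.53, 10.47 and 9.60 against 10.74, 9.84, 10.08 and 9.86 in PhIP mice 2 to 5. On the dim array the second probe read 11.21, its highest value.

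Uchl1, the neuronal ubiquitin hydrolase also called PGP9.5, read 9.51, 10.52 and 9.90 against 10.43, 10.58, 9.85, 10.05 and 9.79. The difference was 0.16 (SE 0.28) with 8 arrays and 0.09 (SE 0.27) with 7. Tubb3, the tubulin of neurons, read 8.05, 9.26 and 8.39 against 4.41, 9.16, 8.29, 8.70 and 8.60. The floor value of the dim array made its 8-array difference -0.74 (SE 1.03), and without that array it was 0.12 (SE 0.31). Elavl4, the neuronal RNA-binding protein HuD, read 5.78, 6.75 and 6.39 against 8.55, 7.16, 6.25, 6.53 and 6.20, with differences of 0.63 (SE 0.58) and 0.23 (SE 0.32). Vip, the vasoactive intestinal peptide of secretomotor neurons, read 4.52, 6.19 and 5.08 against 4.41, 6.43, 5.76, 5.39 and 5.57. It was found on 2 PBS and 4 PhIP arrays, and its differences were 0.25 (SE 0.51) and 0.53 (SE 0.42).

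**Figure D3:**
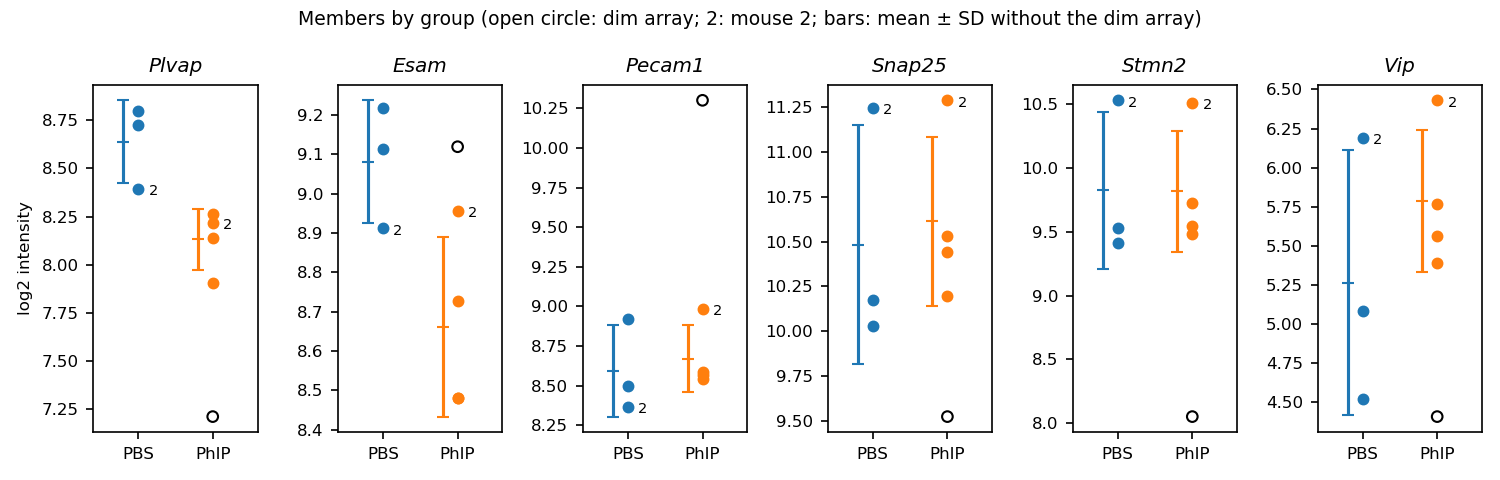
Log2 intensity (vertical axis, a separate scale for each gene) of 3 endothelial and 3 neuronal members by group; each point is 1 mouse, the open circle is the dim array, the digit 2 marks mouse 2 of each group, and bars give mean ± SD without the dim array. The Plvap groups do not overlap, while Snap25, Stmn2 and Vip are highest in mouse 2 of both groups.

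Elavl4, Uchl1, Tubb3, Vip, Prph, Stmn2 and Snap25 were thus highest on the array of PBS mouse 2 among the PBS arrays and also highest on the array of PhIP mouse 2 among the 4 PhIP arrays other than the dim one. That is 7 of the 9 tested neural members (77.8%), all but Gal and S100b, against 9.13% of all tested probes. Among the endothelial members, 2 of 15 (Vwf and Sox17, 13.3%) did so. As a mean over the 9 neural members, PBS mice 1, 2 and 3 stood at -0.38, 0.51 and -0.14 around the PBS mean. PhIP mice 2 to 5 stood at 0.59, 0.00, 0.00 and 0.04 on the same scale, and the dim array at -0.75. The genes are read on the same arrays, so their common order over mice is 1 observation per mouse, noticed in these data, and it was not tested.

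The spread within groups was wider for the neural members than for the endothelial members or all tested probes. The median SD between the PBS arrays was 0.57 over the neural members, 0.29 over the endothelial members and 0.24 over all tested probes. Between the 4 PhIP arrays other than the dim one it was 0.42, 0.23 and 0.22. The neural PBS value was that of S100b, which lay at the floor in PBS mouse 1. Other lists described further on had like PBS medians, 0.55 over 6 enteroendocrine and 0.51 over 16 fibroblast genes. Over 57 genes of a wider neural list the PBS median was 0.38. Between the 4 PhIP arrays these lists stood at 0.41, 0.17 and 0.39. The number 2 is shared by the titles alone, and nothing in the labels ties the 2 mice to each other. Since the authors' matrix has the same scan under PhIP mouse 1, which PhIP mouse it came from is unsettled, and mouse 2 here means the label it was deposited with. Their arrays also differ in what the scan names record, the PBS array having been dipped again before scanning and the PhIP array not. The authors' matrix column for PhIP mouse 2, which matched no scan, put the same 7 neural members above PhIP mice 3, 4 and 5, with a list mean of 0.49 on the scale above. All 3 conditions together held in 6.46% of all probes, in 2 of 15 endothelial members and in 16 of 57 genes (28.1%) of the wider neural list described next. By itself, a value above PhIP mice 3, 4 and 5 in that column was common, in 32.2% of all probes and 9 of 15 endothelial members (60.0%).

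Other genes of neurons were read from a list of 73 transmitter, synaptic, cytoskeletal and developmental genes, of which 57 were tested. Limma called 0 of them in either fit. In both, 34 of 57 fold changes were positive, against 48.0% and 53.1% of all tested probes. The list median was 0.07 with 8 arrays and 0.05 with 7. In this list 28 genes (49.1%) were highest on both mouse 2 arrays. Examples, chosen after their values were seen, are Phox2a, a transcription factor of autonomic neurons, at 7.65, 8.83 and 7.64 in the PBS mice and 8.85, 7.61, 8.06 and 7.84 in PhIP mice 2 to 5. The growth cone protein Gap43 read 7.33, 8.57 and 7.12 against 8.09, 7.21, 7.04 and 6.93 in the same mice. Neuropeptide gene Npy read 11.11, 11.66 and 11.06 against 12.33, 11.13, 11.07 and 11.04. In these 3 genes mouse 2 stood clear above the rest of its group, the dim array left aside.

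Penk, the precursor of enkephalins, had the smallest p of the neural list with 8 arrays, at 9.82, 9.83 and 10.44 in the PBS mice and 8.72, 9.62, 9.77, 9.14 and 9.47 in the PhIP mice. The Penk groups did not overlap, with a log2 fold change of -0.68 (SE 0.28, limma adjusted p = 0.838) and, with 7 arrays, -0.52 (SE 0.20, limma adjusted p = 0.540). Groups apart on the lower side were seen in 1 of 57 genes of this list with 8 arrays and in 2 with 7. Of all probes, 2.09% and 2.93% lay apart on that side. On the higher side 0 and 1 genes lay apart, against 651 of 20020 tested probes with 8 arrays and 1082 of 20007 with 7. Penk is also expressed outside neurons. With 7 arrays the smallest p belonged to Map1b, a microtubule-associated protein of neurons, named after its values were seen. Map1b read 10.62, 10.43 and 10.69 in the PBS mice and 11.17, 10.16, 9.96, 10.37 and 10.13 in the PhIP mice, with differences of -0.22 (SE 0.27) and, with 7 arrays, -0.42 (SE 0.11, limma adjusted p = 0.393). The other genes with the smallest p on the lower side were Fabp7, a glial fatty acid-binding protein (-0.89, SE 0.41), the neurofilament gene Nefm (-0.60, SE 0.48) and Grp, gastrin-releasing peptide (-0.20, SE 0.16). On the higher side they included the synaptic vesicle genes Vamp2 (0.22, SE 0.13) and Sv2a (0.87, SE 0.52) and the SNARE gene Stx1a (0.49, SE 0.36). These all had a limma adjusted p of 0.838 with 8 arrays. Without the dim array Nefm was at -0.32, Grp at -0.13, Sv2a at 0.51 and Stx1a at 0.26.

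Of 60 further genes of endothelial cells and their signalling pathways, 48 were tested and 0 were called in either fit. The list includes ligands and growth factors, so it does not mark endothelial cells alone. With 8 arrays 30 fold changes were negative and 18 positive, where 48.0% of all tested probes were positive. With 7 arrays 34 were negative and 14 positive, where 53.1% of all tested probes were positive. The list medians were -0.21 and -0.15. Angpt4, a ligand of Tek, had the smallest p. It read 7.33, 7.10 and 6.94 in the PBS mice and 4.41, 5.17, 6.31, 6.06 and 6.18 in the PhIP mice, so that the groups did not overlap. The difference of -1.49 (SE 0.48) had a limma adjusted p of 0.838, and with 7 arrays that of -1.20 (SE 0.30) had one of 0.366.

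Slit2, a ligand of roundabout receptors, read 6.69, 6.81 and 6.92 against 4.94, 6.37, 6.41, 6.18 and 6.31, again without overlap. The log2 difference was -0.77 (SE 0.39) with 8 arrays and -0.49 (SE 0.15, limma adjusted p = 0.448) with 7. With Vegfc, a growth factor of lymphatic vessels, these made up the 3 genes of 48 whose groups did not overlap on the lower side, against 2.09% of all probes with 8 arrays and 2.93% with 7. The inhibitor of BMP signalling Smad6 (-0.51, SE 0.24) and the growth factor Pgf (-0.67, SE 0.35) followed, with limma adjusted p = 0.838. On the higher side the smallest p belonged to Acvrl1, a BMP receptor of vessels (0.42, SE 0.27), the matrix protein gene Mmrn2 (0.41, SE 0.31) and the transcription factors Ets1 (0.51, SE 0.41) and Sox7 (0.31, SE 0.26). Without the dim array Acvrl1 was at 0.39, Mmrn2 at 0.20, Ets1 at 0.19 and Sox7 at 0.12.

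Markers of other cells in the scraped tissue were measured on the same arrays. Of 16 fibroblast genes, 15 had negative fold changes with 8 arrays and 16 with 7, with medians of -0.63 and -0.46 and 0 called. Their list mean around the PBS mean lay between -0.27 and 0.47 in the PBS mice and between -0.71 and -0.44 in PhIP mice 2 to 5. Of 14 smooth muscle and pericyte genes, 12 were negative in either fit, with medians of -0.28 and -0.23. Their list mean lay between -0.12 and 0.19 in the PBS mice and between -0.34 and -0.10 in PhIP mice 2 to 5. The collagen gene Col1a1 differed by -1.72 (SE 0.56) and Acta2, the actin of smooth muscle, by -1.0 (SE 0.62). Without the dim array they differed by -1.29 (SE 0.32) and -0.47 (SE 0.08). These were the lowest values of their lists with 8 arrays. The limma adjusted p was 0.838 for both, and 0.366 and 0.196 with 7 arrays. Of the other defining markers, Col3a1 differed by -1.34 with 8 arrays and -1.35 with 7, and Des by -0.45 and -0.25. The endothelial list mean, by comparison, ran from -0.13 to 0.17 in the PBS mice and from -0.23 to 0.08 in PhIP mice 2 to 5. The part of these cells in the Plvap, Angpt4 and Slit2 values was not tested.

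**Figure D4:**
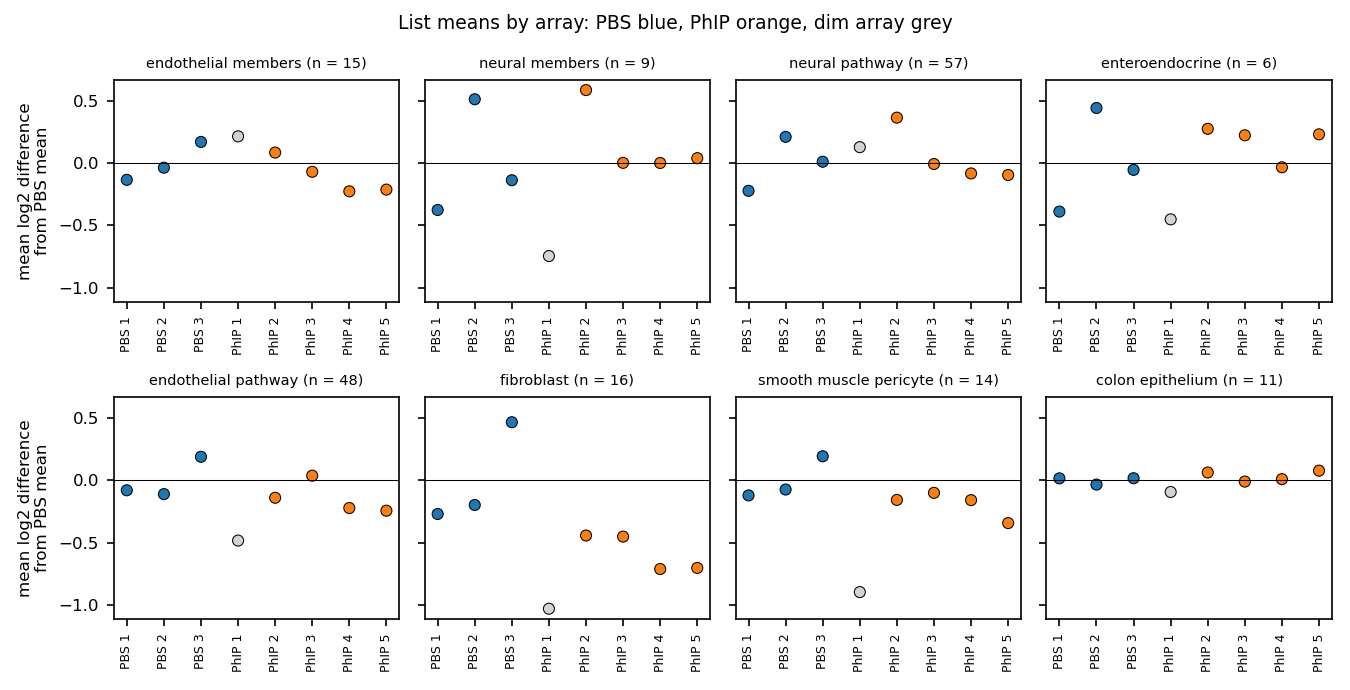
Mean over each gene list of log2 intensity minus the PBS mean of each gene (vertical axis), by array (horizontal axis), with PBS in blue, PhIP in orange and the dim array in grey. The neural members, the wider neural list and the enteroendocrine list peak at mouse 2 of both groups. The fibroblast mean is below all PBS arrays on every PhIP array.

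Blood and secretory cells can carry some of the same transcripts. Of 5 tested erythroid genes, 3 globin genes had negative fold changes and the other 2, Alas2 and Slc4a1, positive ones with 8 arrays. The haemoglobin gene Hba-a1 read 13.04, 13.14 and 13.61 in the PBS mice and 12.60, 12.04, 7.12, 6.17 and 5.04 in the PhIP mice, a log2 fold change of -4.67 (SE 1.79, limma adjusted p = 0.838). PhIP mice 1 and 2 thus stood near the PBS mice and PhIP mice 3 to 5 far below. The 7 tested immune genes had means between -0.24 and 0.34 in the PBS mice and between -0.21 and 0.11 in PhIP mice 2 to 5, and Ptprc was found on 0 arrays. Enteroendocrine cells share secretory granule genes with neurons, and 3 of 6 tested genes of that list (Chgb, Scg2 and Scg5) were highest on both mouse 2 arrays. Chgb, chosen after its values were seen, read 5.19, 7.21 and 6.26 in the PBS mice and 7.54, 6.77, 6.59 and 6.77 in PhIP mice 2 to 5. Chga, the defining marker of that list, read 6.02, 7.12 and 6.10 against 6.82, 6.54, 6.67 and 7.04 in the same mice. PhIP mouse 5 was thus the highest of these PhIP mice for Chga. Sct and Tph1 were not highest on both mouse 2 arrays either. The enteroendocrine list mean stood at -0.39, 0.44 and -0.05 in the PBS mice and at 0.28, 0.22, -0.03 and 0.23 in PhIP mice 2 to 5. That of 6 tested tuft cell genes also peaked at mouse 2 of both groups. It stood at -0.19, 0.17 and 0.02 against 0.27, 0.17, 0.00 and 0.05 in the same mice, and 1 of the 6 genes was highest on both arrays. None of the 16 fibroblast and 14 smooth muscle genes was highest on both mouse 2 arrays (0 and 0). The list of 11 colon epithelium genes stayed between -0.03 and 0.08 over the 7 arrays. The part of enteroendocrine and tuft cells in the neural values was not tested.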

How the data were processed

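Per the labels' protocols, the RNA was copied into cRNA carrying biotin, and Alexa-647 was the dye. Per the file headers, the spots were read at 635 nm with GenePix Pro 4.1.1.4. The deposited intensity used was the median minus local background, on a linear scale. The deposited flag score says whether a spot was found. The authors' deposited matrix holds log2 values and was an alternative. Other upstream steps are not given in the sources used here.

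Groups came from the titles. Of 35078 mouse probes, 23071 were named through RefSeq accessions. Intensities were quantile normalized between arrays, raised to a floor of 21.25 (percentile 5 of found values) and put on the log2 scale. Array values printed are from this 8-array normalization. Left out were 23 bad-flagged probes and those found on fewer than 3 arrays. The groups were tested in limma 3.58.1 under R 4.3.3, using lmFit and a trended eBayes, with 2-sided p-values adjusted by Benjamini and Hochberg's method across the 20020 tested probes (20007 with 7 arrays). The limma fit was tested on simulated data in which probes varied independently and no array was dim. The normalization and the floor were not part of that test. A gene is counted by its probe of highest mean. Whether mice were littermates is not stated, and p-values measure the spread between these 8 arrays, whose number limits the precision.

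Members with values for every array were those whose groups did not overlap, those among the 6 largest fold changes of either list in either fit, and those whose sign turned by over 0.5 without the dim array. Pathway genes with values had the 4 smallest p of their list in a direction, and 1 of them is not reported here. The members and the lists were chosen with earlier results of these data known. Same-numbered mice did not deviate together (correlations -0.10, 0.19 and -0.13), so numbers were not taken as pairs.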

Additional observations from a re-analysis of the deposited data

Results flagged for a closer look

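In 8 of 26 member values and summaries compared over the 5 PhIP arrays, the dim array stood apart from the other 4 by more than Dixon's critical value of 0.71 times the group's range. Chance alone gives this in about 1 group in 20, but the 26 were read on the same 5 arrays and are not independent. All 8 fell on the dim array, and members went both ways. On the higher side, Pecam1 read 10.3 against 8.54 to 8.99 on the other PhIP arrays, Flt1 9.61 against 7.49 to 8.09, Cldn5 11.23 against 8.79 to 9.38 and Sox18 10.22 against 8.63 to 9.04. On the lower side, Cdh5 read 6.10 against 7.60 to 8.07. Tek, Sox17 and Tubb3 lay at the floor of 4.41, against 6.29 to 6.91, 6.24 to 6.59 and 8.29 to 9.16.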

How the results depend on the processing

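None of 425 member values over 25 alternatives passed the threshold (lowest limma adjusted p = 0.289, for Plvap with the authors' matrix), and the count of called members was 0 for either list in each. Plvap stayed negative in all 25, from -1.24 with median scaling to -0.50 without the dim array. The sign turned in 41 member values over 12 of the 17 members given in full. Over single-array omissions the endothelial median ran from -0.05 to 0.06 and the neural one from -0.24 to 0.25, the count of called probes overall from 0 to 7. In the same omissions Prph ran from -0.24 to 0.25, Snap25 from -0.31 to 0.29, Stmn2 from -0.62 to -0.01, Tubb3 from -1.06 to 0.12, S100b from -0.34 to 0.18, Uchl1 from -0.071 to 0.43, Vip from -0.12 to 0.72 and Vwf from -0.22 to 0.052.

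With a replicate block, 0 probes were called, Vwf turned to 0.090, and no other call changed. The mice share only a number, and same-numbered pairs correlated at -0.10, 0.19 and -0.13. Re-dipping as a block turned Vwf to 0.015. Within the re-dipped arrays, 0 probes were called, the endothelial median was 0.25, and Vwf (0.050), Egfl7 (0.25), Vip (-0.27) and S100b (0.016) turned. Within those not re-dipped, where PBS has 1 array and is assumed to vary like PhIP, 0 were called, the median was -0.26, and Pecam1 (-0.22), Flt1 (-0.26), Cldn5 (-0.32), Tubb3 (0.43), Prph (0.44), Stmn2 (0.49) and Snap25 (0.61) turned. Number range 2 in the scan names holds 1 PBS and 5 PhIP arrays and range 1 no PhIP array, so the next values also rest on 1 PBS array. With the range as a block 2 probes were called, and within range 2, 9. In either, the endothelial median was -0.16 and Vwf (0.13), Prph (0.13), Stmn2 (0.050) and Snap25 (0.37) turned. Median scaling called 0, moved the median of all probes by -0.33 and the endothelial median to -0.58, and turned Flt1 (-0.041) and Uchl1 (-0.19). A floor at percentile 1 called 2 and turned S100b (0.11). No filter on dim probes, a minimum of 5 arrays, 1 probe a gene and robust eBayes called 2 each. The mean of a gene's probes called 0 and turned Prph (0.22). The authors' matrix, which holds another array for PhIP, called 12 and turned Tubb3 (0.17), Prph (0.23), Stmn2 (0.14) and Snap25 (0.21). The cause of these changes was not tested. Kdr, Ret, Nos1, Chat and Gfap were at or below background, which limits what these arrays show of them.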
